A study of Mus musculus with 8 samples.

Results

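The matrix metalloproteinases (MMP), their tissue inhibitors (TIMP) and the ADAMTS proteases of the mouse cornea were followed in dry eye, with and without blockade of the β2-adrenergic receptor. The members were all genes of the deposited expression table with a symbol of the form Mmp, Timp or Adamts plus a number, 44 of 23597 genes: 22 MMP, 4 TIMP and 18 ADAMTS genes. The 4 samples named ICI came from mice injected with scopolamine, a muscarinic antagonist that dries the ocular surface, and treated with ICI 118551, which blocks the β2-adrenergic receptor. The 4 samples named Scop came from scopolamine mice without ICI 118551. All 8 samples were taken on day 14 of injection, and each was a pool of 4 corneas. Strain, sex, age and dose are not stated in the sources used here, and no cornea without dry eye was among the samples. The labels do not tie pools to animals, and the p-values therefore reflect no more than how far these 8 pools differ from one another.

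Matrix metalloproteinases are zinc enzymes that cut collagens, proteoglycans and cell surface proteins, and most are made as inactive precursors. TIMPs bind the active enzymes and block them. ADAMTS enzymes are secreted relatives, some of which trim procollagen while others cut the large proteoglycans or act on microfibrils. In the cornea these families are known for stromal remodelling and epithelial wound healing, and MMP9 in tears is a clinical marker of dry eye in people.

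Levels were in FPKM (fragments per kilobase of gene and per 1000000 fragments of the library) and can be set side by side between genes. Each library held between 34354346 and 39885822 fragments, read back from the spacing of its FPKM values. The tissue showed its markers: Krt12, the keratin of corneal epithelium, stood between 15374 and 16247 FPKM in ICI and between 15153 and 18414 in Scop. Dcn, a keratocyte proteoglycan gene, stood between 924 and 1202 in ICI and between 342 and 1105 in Scop. Slc4a11, a transporter gene of corneal endothelium, stood between 14.8 and 41.4 in ICI and between 9.65 and 22.6 in Scop. Scop replicate 3 stood apart. The summed level of its 12 keratocyte markers was 653 FPKM, against 1647 to 2147 in ICI and at least 1655 in the other Scop libraries. Ly6g, which defines neutrophils, was listed at 0 in all 8 libraries. Fewer cells of a type and less RNA per cell cannot be told apart in such pooled tissue.

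The cornea held few of these proteases at high level. Only 6 of the 44 genes averaged at least 10 FPKM over the 8 libraries: Timp2, Mmp14, Timp3, Mmp2, Mmp3 and Mmp28. A further 7 lay between 1 and 10 FPKM and 2 between 0.5 and 1. The other 29 lay below 0.5 FPKM, with Adamts17 the highest of them at 0.297 and 26 of them below 0.1. Mmp14 and Mmp2 together made up 67.0% of the summed FPKM of the MMP family, and Mmp3 and Mmp28 raised that share to 92.3%. Timp2 and Timp3 made up 99.4% of the TIMP sum. The ADAMTS sum was small, with a mean of 7.25 FPKM in ICI (SD 1.05) and 6.96 in Scop (SD 2.10). Here and below, values after ± are SDs over the 4 libraries of a group. The MMP sum was 137.1 ± 9.65 FPKM in ICI and 137.7 ± 5.96 in Scop, and the TIMP sum 110.2 ± 29.0 in ICI and 95.7 ± 27.2 in Scop.

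**Figure D1:**
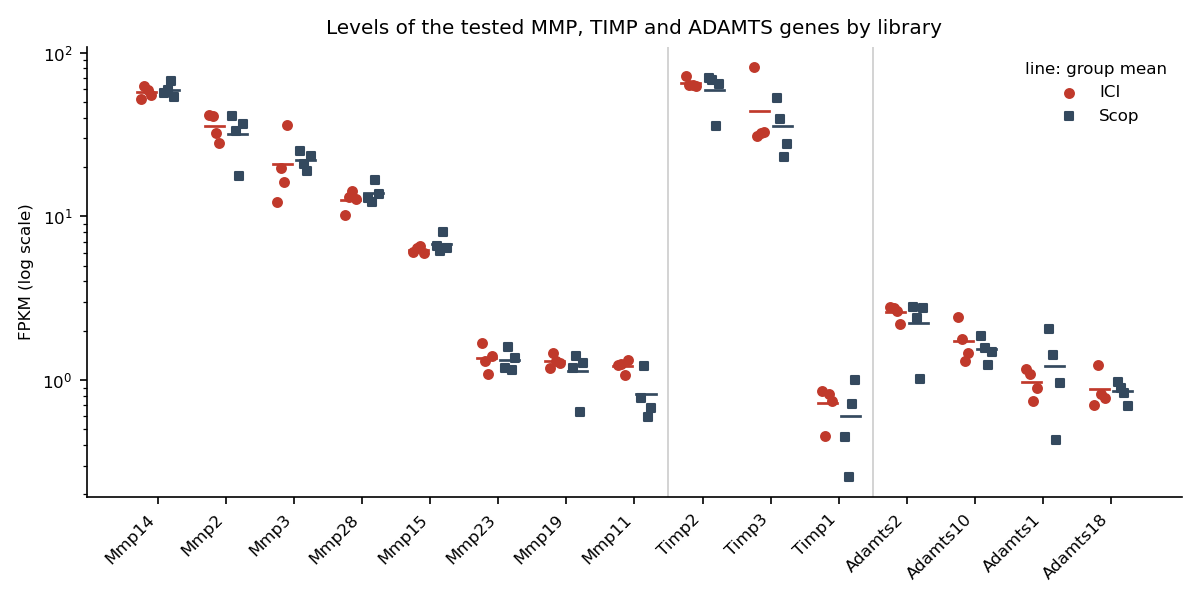
FPKM (log scale) of the 15 members that averaged at least 0.5 FPKM, in the 4 ICI libraries (circles, left) and the 4 Scop libraries (squares, right), with each group's mean as a line; families are separated by grey lines. The groups overlap for every gene shown, Mmp11 lies between 1.08 and 1.33 FPKM in ICI and between 0.595 and 1.22 in Scop, and the low square of Mmp2, Timp2 and Adamts2 is Scop replicate 3.

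No member differed between ICI and Scop after adjustment. The test was limma on log2(FPKM + 1) over the 12100 genes that averaged at least 0.5 FPKM, 15 members among them (8 MMP, 3 TIMP and 4 ADAMTS), with Benjamini-Hochberg adjustment over all 12100. The adjusted p was under 0.05 for 0 of the 15 members, where 0% of all tested genes were called higher and 0% lower. At an unadjusted p under 0.05 there was 1 member, Mmp11, which was higher in ICI, against 12.0% of all tested genes, 4.56% higher and 7.46% lower. Limma-voom on the recovered fragments gave 0 members after adjustment, and its unadjusted share over all genes was 12.0% as well. Of the 15 members, 10 had positive and 5 negative log2 fold changes, against 44.6% positive over all tested genes. The median was 0.10 for the members and -0.02 for all tested genes. By family it was -0.01 for the MMP, 0.18 for the TIMP and 0.06 for the ADAMTS genes. The TIMP median was 0.062 without Scop replicate 3, 0.077 without ICI replicate 1 and -0.0027 with a score of keratocyte markers as a covariate. The ADAMTS median was -0.0046 without Scop replicate 3, 0.026 without ICI replicate 1, 0.0083 without ICI replicate 2, 0.033 without Scop replicate 4 and -0.018 with that score. The groups were free of overlap for 0 of the 15, against 6.98% of all tested genes. Without Scop replicate 3 the median over the members was -0.01.

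**Figure D2:**
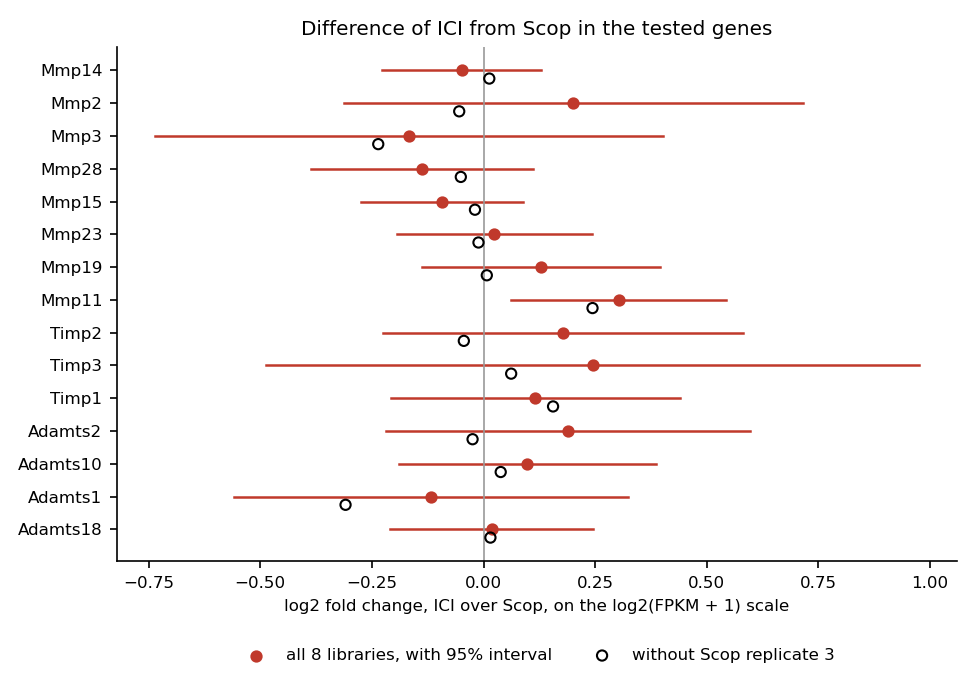
Log2 fold change of ICI over Scop on the log2(FPKM + 1) scale for the 15 tested members, from limma, with its 95% interval (filled, red) and the value without Scop replicate 3 (open). All intervals but that of Mmp11 include 0, and the open symbols of Mmp2, Mmp14, Mmp23, Timp2 and Adamts2 lie on the other side of 0 from the filled ones.

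Mmp14 encodes the membrane-anchored collagenase that activates pro-MMP2 at the cell surface (chromosome 14, 54431612 to 54445364, plus strand, of the mm10 build). It was the most abundant protease of the set, at 51.7, 62.8, 58.9 and 55.1 FPKM in ICI replicates 1, 2, 3 and 4, against 56.6, 59.3, 67.3 and 53.7 in the Scop replicates. The groups overlapped, with ICI replicate 1 the lowest and Scop replicate 3 the highest of the 8 libraries. A log2 fold change of -0.05 (SE 0.08) was fitted, and its 95% interval corresponded to 0.85-fold to 1.09-fold. Mmp15, a second membrane-type metalloproteinase gene, was at 6.09, 6.39, 6.61 and 5.94 FPKM in ICI, against 6.57, 6.11, 8.02 and 6.37 in Scop. Its log2 fold change of -0.09 (SE 0.08) was -0.02 without Scop replicate 3, which held the highest value. Mmp28, the gene of epilysin, a secreted protease of keratinocytes and other epithelia, showed the same high library. It was at 10.2, 13.0, 14.2 and 12.7 FPKM in ICI, against 13.0, 12.2, 16.7 and 13.7 in Scop. Its log2 fold change of -0.14 (SE 0.11) was -0.051 without Scop replicate 3 and -0.050 without ICI replicate 1. Mmp28 shares 466 exonic bases with 1700020L24Rik on the opposite strand, which was at most 0.424 FPKM in ICI and 0.377 in Scop.

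Mmp2 encodes gelatinase A, the main gelatinase of the uninjured stroma (chromosome 8, 92827291 to 92853420, plus strand). It was at 41.3, 41.2, 32.5 and 28.2 FPKM in ICI, against 40.8, 33.3, 17.6 and 36.4 in Scop. Scop replicate 3 was far below the other libraries, which reached from 28.2 to 41.3 in ICI and from 33.3 to 40.8 in Scop. Its log2 fold change of 0.20 (SE 0.23) was -0.05 without that library. Adamts2, which encodes the protease that removes the amino propeptide of procollagen, was likewise lowest in Scop replicate 3. It was at 2.78, 2.77, 2.63 and 2.20 FPKM in ICI, against 2.80, 2.39, 1.02 and 2.77 in Scop, and its log2 fold change of 0.19 (SE 0.18) was -0.02 without Scop replicate 3.

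The inhibitor gene Timp2, whose product both blocks MMPs and takes part in the activation of pro-MMP2, was the most abundant of all members (chromosome 11, 118301069 to 118355740, minus strand). It was at 71.7, 63.7, 63.5 and 62.1 FPKM in ICI, against 69.9, 67.6, 35.8 and 64.3 in Scop. All libraries but Scop replicate 3 lay within 10 FPKM of each other. Timp2 had a log2 fold change of 0.18 (SE 0.18), and of -0.04 without that library. Timp1, the inducible inhibitor gene, was low, at 0.856, 0.454, 0.827 and 0.745 FPKM in ICI, against 0.449, 0.257, 0.716 and 0.997 in Scop. It rested on 16 to 30 fragments per ICI library and 9 to 32 per Scop library, and its log2 fold change of 0.12 (SE 0.15) lay between 0.0058 (without Scop replicate 2) and 0.23 (without Scop replicate 4) when 1 library was left out. Timp4 was above 0 in Scop replicate 3 alone, at 0.00984 FPKM.

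Timp3, the inhibitor that binds to the extracellular matrix and also blocks ADAMTS enzymes, varied widely (chromosome 10, 86300372 to 86349506, plus strand). It was at 81.1, 31.0, 32.1 and 32.6 FPKM in ICI, against 53.1, 39.2, 22.9 and 27.6 in Scop. Replicate 1 was the highest library in each group, and the other 3 ICI values lay within the range of Scop. Its log2 fold change of 0.24 (SE 0.33) became -0.09 without ICI replicate 1. Timp3 shares 1733 exonic bases with Syn3 on the opposite strand, which was between 0.0847 and 0.101 FPKM in ICI and between 0.0647 and 0.113 in Scop. Markers of corneal endothelium, the cell layer on the inner face of the cornea, moved with it. Slc4a11 was at 41.4, 14.8, 15.5 and 16.1 FPKM in ICI, against 22.6, 19.4, 9.65 and 12.1 in Scop. Col8a2, a collagen gene of the membrane under that layer, was at 85.4, 37.2, 38.8 and 35.9 FPKM in ICI, against 60.7, 44.9, 25.9 and 38.3 in Scop.

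An endothelium score, the mean log2(FPKM + 1) of 7 endothelial markers, put this in 1 value per library. It was 4.71, 3.66, 3.64 and 3.71 in ICI, against 4.22, 3.88, 2.93 and 3.37 in Scop. Across the 8 libraries Timp3 followed the score with Pearson's r of 0.978 (exact permutation p = 7.44e-05, two-sided) and Spearman's rho of 0.976 (exact permutation p = 0.000397). Adjusted by Benjamini-Hochberg over the 30 relations computed (15 members, 2 scores), the values were 0.00223 and 0.0119. Without ICI replicate 1 and Scop replicate 3, the 2 libraries farthest from the median score, r was 0.981 over 6 libraries. Of 12094 tested genes outside the marker list, 0.0992% had an r at least as high. With the score as a covariate the log2 fold change of Timp3 was -0.11 (SE 0.08). The libraries share 1 dissection and cell composition each, and the relation was looked for after the Timp3 values had been seen.

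A keratocyte score was made in the same way from 12 markers. It was 5.48, 5.44, 5.29 and 5.30 in ICI, against 5.46, 5.27, 4.17 and 5.32 in Scop. Mmp2 followed it with r of 0.941 (exact permutation p = 0.00164, adjusted 0.0246) and rho of 0.881 (exact permutation p = 0.00724, adjusted 0.0543), and r was 0.827 without ICI replicate 1 and Scop replicate 3. Adamts2 had r of 0.976 (exact permutation p = 0.00367, adjusted 0.0275) and rho of 0.881 (exact permutation p = 0.00724, adjusted 0.0543), and 0.630 without those libraries. Timp2 had r of 0.982 (exact permutation p = 0.00769, adjusted 0.0384) and rho of 0.714 (exact permutation p = 0.0576, adjusted 0.192). Its r fell to 0.396 without them, so the relation of Timp2 with the keratocyte score rested on those libraries. With the endothelium score Timp2 had r of 0.772 (exact permutation p = 0.0206, adjusted 0.0883) and rho of 0.786 (exact permutation p = 0.0279, adjusted 0.105). Without the same libraries the endothelium r of Timp2 was 0.786. Of 12089 tested genes outside the keratocyte list, 1.14% had a keratocyte r at least as high as Mmp2. The share was 0.265% for Adamts2 and 0.149% for Timp2. For the endothelium r of Timp2 it was 5.62% of 12094 genes.

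Some members ran the other way. Mmp28 had r of -0.912 with the endothelium score (exact permutation p = 0.00561, adjusted 0.0336) and rho of -0.905 (exact permutation p = 0.00456, adjusted 0.0543), and -0.477 without ICI replicate 1 and Scop replicate 3. Of 12094 tested genes outside the endothelial list, 0.124% had an r at least as low. Mmp28 was highest in Scop replicate 3, as were Mmp14 and Mmp15. The summed levels of epithelial markers (40603 FPKM), conjunctival markers (1935) and squamous stress markers (3807) were also highest there, against at most 37336, 1316 and 2671 in ICI. Aldh3a1, Pax6 and Cdh1 were exceptions among the epithelial markers. In Scop replicate 3 they were at 10434, 165 and 108 FPKM, against up to 10592, 173 and 112 in ICI. Scop replicate 3 was the lowest of the 8 libraries for 8 of the 15 tested members, against 24.9% of all tested genes, and the highest for 3, against 15.0%. What part cell composition had in these differences was not tested beyond the covariate fits.

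**Figure D3:**
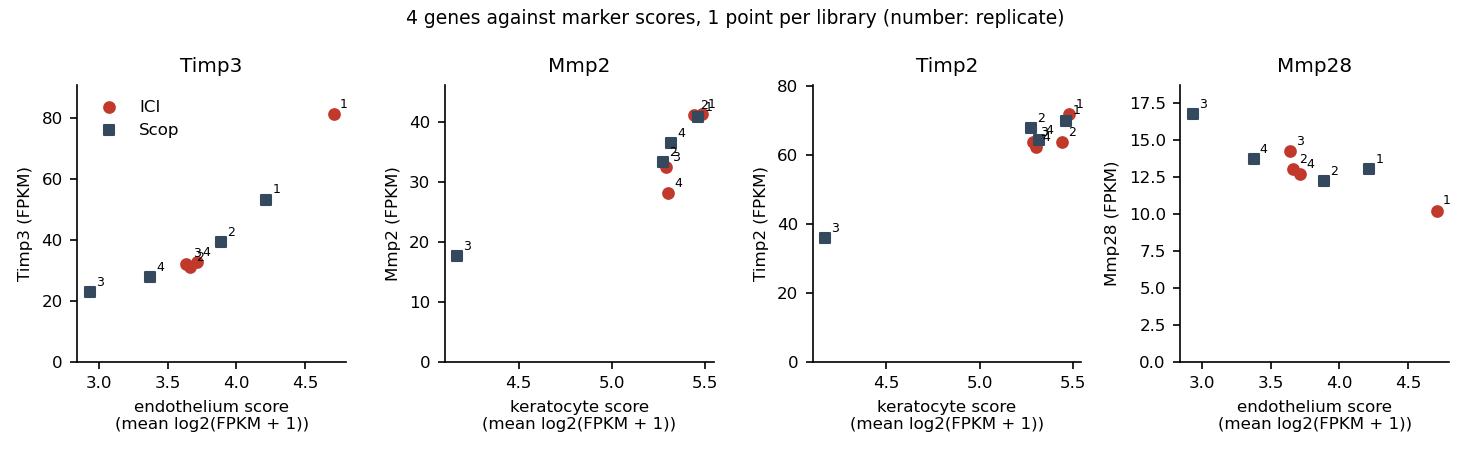
FPKM of Timp3, Mmp2, Timp2 and Mmp28 in each library (ICI circles, Scop squares, replicate number beside the point) against the endothelium or keratocyte score, each the mean log2(FPKM + 1) of its markers. Timp3 rises with the endothelium score over the whole range, while for Mmp2 and Timp2 Scop replicate 3 lies far left and low, and Mmp28 is highest there.

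Mmp3, the gene of stromelysin-1, which cuts proteoglycans and activates other MMPs, was at 12.2, 19.7, 16.1 and 35.9 FPKM in ICI, against 24.9, 20.9, 18.9 and 23.4 in Scop. ICI replicate 4 was the highest of the 8 libraries, and the other 3 ICI libraries included the 2 lowest. The log2 fold change of -0.17 (SE 0.26) was -0.45 without ICI replicate 4 (unadjusted p = 0.0136, adjusted p = 0.359 by limma) and 0.04 without ICI replicate 1. The Scop libraries lay close together, at 22.0 ± 2.69 FPKM, against 21.0 ± 10.4 in ICI. Mmp3 is 1 of 10 Mmp genes that lie side by side on chromosome 9 in 427 kb (7272514 to 7699585 of the mm10 build). In order along the chromosome these are Mmp13, Mmp12, Mmp1b, Mmp3, Mmp1a, Mmp10, Mmp8, Mmp27, Mmp20 and Mmp7. Mmp3 averaged 21.5 FPKM, and the other 9 averaged at most 0.0756 FPKM (Mmp12). Its next neighbours Mmp1b and Mmp1a, were above 0 in 1 library each, and Mmp1a is annotated as a polymorphic pseudogene.

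The promoters of this cluster are shown because the gene that was expressed and its barely detected neighbours hold the same motifs just before their starts. The motif TGANTCA was searched in the 250 bases before each annotated start in RefSeq (GRCm38.p6). It is looser than the binding sequence of AP-1 factors, which has G or C in the middle. The match of Mmp20, TGAATCA, has A there. TGANTCA reads alike on both strands. It was present for 8 of the 10 cluster genes and for 0 of the 21 other members with a promoter in the table, against 6.75% of 32851 promoters. TATAAA on either strand was present for 7 of the 10, in each case with TGANTCA in the same promoter, against 1.21% of all promoters with both motifs. The motifs do not overlap each other in these promoters. The 7 promoters with both are given 5′ to 3′ on the strand of the gene, as the 110 bases that end 1 base before the annotated start, with both motifs in capitals.
Mmp3 (chr9:7445712-7445821, plus strand): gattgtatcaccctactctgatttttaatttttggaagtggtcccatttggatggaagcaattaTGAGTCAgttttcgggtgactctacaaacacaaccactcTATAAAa
Mmp10 (chr9:7502232-7502341, plus strand): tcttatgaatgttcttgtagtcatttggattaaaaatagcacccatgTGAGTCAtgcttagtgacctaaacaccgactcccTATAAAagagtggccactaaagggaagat
Mmp13 (chr9:7272404-7272513, plus strand): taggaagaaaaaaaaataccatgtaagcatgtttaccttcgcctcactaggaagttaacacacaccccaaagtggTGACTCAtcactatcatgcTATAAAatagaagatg
Mmp1a (chr9:7464031-7464140, plus strand): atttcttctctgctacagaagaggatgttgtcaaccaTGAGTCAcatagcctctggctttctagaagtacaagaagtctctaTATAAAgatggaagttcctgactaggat
Mmp1b (chr9:7388027-7388136, minus strand): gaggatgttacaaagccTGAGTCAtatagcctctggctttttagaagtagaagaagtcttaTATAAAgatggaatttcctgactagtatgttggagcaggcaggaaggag
Mmp7 (chr9:7691980-7692089, plus strand): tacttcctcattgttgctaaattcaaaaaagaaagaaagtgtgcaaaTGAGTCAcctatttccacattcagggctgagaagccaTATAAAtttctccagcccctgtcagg
Mmp20 (chr9:7628121-7628230, plus strand): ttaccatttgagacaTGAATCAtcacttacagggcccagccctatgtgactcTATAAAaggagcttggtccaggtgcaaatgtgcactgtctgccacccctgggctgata

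TGANTCA began 46 bases before the annotated start of Mmp3, 63 before that of Mmp10 and 35 before that of Mmp13. Mmp10, the gene of stromelysin-2 and the nearest relative of Mmp3 in the cluster, had 2, 1, 2 and 5 fragments in ICI, against 10, 1, 1 and 2 in Scop. Mmp13, a collagenase gene, had 9, 0, 16 and 2 fragments in ICI, against 15, 6, 7 and 3 in Scop. Neither gene separated the groups. A match of letters is a description of the promoter and says nothing of whether a factor was bound.

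**Figure D4:**
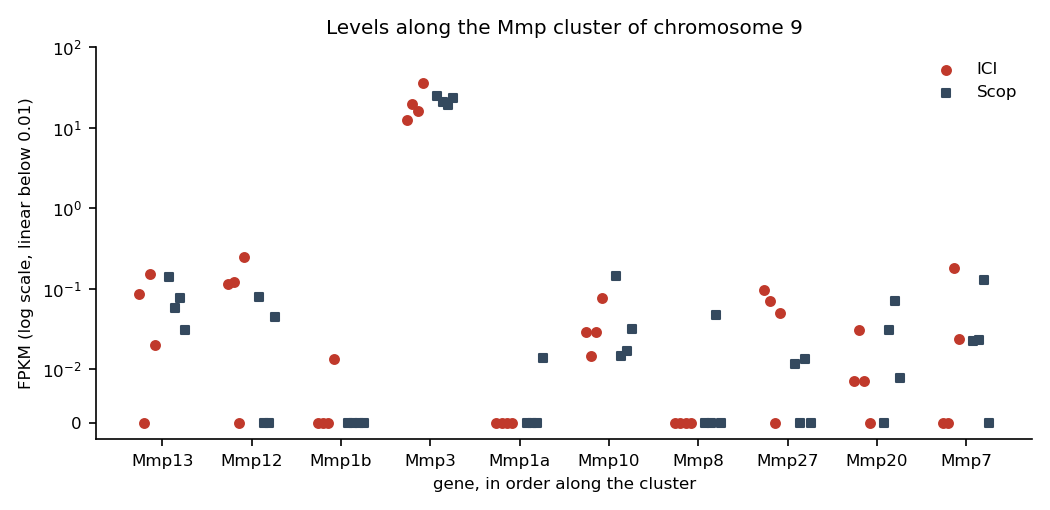
FPKM (log scale, linear below 0.01) of the 10 Mmp genes of the chromosome 9 cluster, in their order along the chromosome, in each ICI library (circles) and each Scop library (squares). Mmp3 lies between 12.2 and 35.9 FPKM in ICI and between 18.9 and 24.9 in Scop, and no other gene of the cluster exceeds 0.246 FPKM.

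Mmp9, the gene of gelatinase B, lay near the lower limit of detection. It had 8, 0, 9 and 1 fragments in ICI, against 9, 4, 4 and 1 in Scop, or 0.0302 ± 0.0310 FPKM in ICI and 0.0309 ± 0.0214 in Scop. Other genes known from inflammatory cells were low as well. Mmp8, the collagenase gene of neutrophils, was listed at 0 in 7 libraries and at 0.0473 FPKM in Scop replicate 3. Mmp12, the elastase gene of macrophages, averaged 0.120 FPKM in ICI and 0.0309 in Scop. It had 17, 18, 0 and 35 fragments in ICI, against 12, 0, 0 and 6 in Scop, and both groups included libraries at 0. Mmp7, the gene of the epithelial protease matrilysin, had 0, 0, 8 and 1 fragments in ICI, against 1, 1, 5 and 0 in Scop. For a gene at 0 throughout a group, the 155325865 fragments of ICI and the 149335964 of Scop allow up to 3 fragments, which is 0.0193 in ICI and 0.0201 in Scop per 1000000 fragments (counting error only).

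Mmp11, the gene of stromelysin-3, was the only tested member with an unadjusted p under 0.05 (chromosome 10, 75923222 to 75936496, minus strand). It was at 1.24, 1.25, 1.08 and 1.33 FPKM in ICI, against 0.774, 1.22, 0.595 and 0.679 in Scop. Scop replicate 2 lay within the ICI range, and the other 3 Scop libraries lay below all ICI libraries. The log2 fold change was 0.30 (SE 0.11, unadjusted p = 0.0186, adjusted p = 0.325 by limma), so Mmp11 failed the test. The adjusted p lay between 0.304 and 0.557 over all alternatives that tested it. The log2 fold change on the voom scale was 0.62, about 0.57 with a pseudocount of 0.1 and 0.10 with a pseudocount of 5, since the pseudocount dampens a gene near 1 FPKM. Mmp11 rested on 97 to 115 fragments per ICI library and 47 to 110 per Scop library. It shares 155 exonic bases with Chchd10 on the opposite strand, and whether reads were assigned by strand is not given in the sources used here. Chchd10 stood between 2.94 and 4.23 FPKM in ICI and between 3.16 and 4.54 in Scop, with a log2 fold change of 0.02.

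Mmp19 and Mmp23 completed the tested MMP genes. Mmp19 was at 1.18, 1.47, 1.30 and 1.27 FPKM in ICI, against 1.19, 1.41, 0.637 and 1.28 in Scop, with a log2 fold change of 0.13 (SE 0.12) that was 0.01 without Scop replicate 3. It shares 789 exonic bases with Tmem198b on the opposite strand, which was at 2.72, 2.36, 2.52 and 2.53 FPKM in ICI, against 2.42, 1.89, 2.47 and 2.37 in Scop. Mmp23, which encodes a short membrane-tethered enzyme, was at 1.68, 1.30, 1.09 and 1.41 FPKM in ICI, against 1.19, 1.59, 1.15 and 1.36 in Scop, with a log2 fold change of 0.02 (SE 0.10).

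Among the ADAMTS genes 4 were tested. Adamts10, whose human counterpart acts on fibrillin microfibrils and is mutated in Weill-Marchesani syndrome, was at 2.41, 1.79, 1.30 and 1.46 FPKM in ICI, against 1.87, 1.58, 1.23 and 1.48 in Scop. Replicate 1 was the highest library in each group, as for Timp3. With the endothelium score r was 0.894 (exact permutation p = 0.00327, adjusted 0.0275) and rho 0.833 (exact permutation p = 0.0154, adjusted 0.0769). That r was 0.618 without ICI replicate 1 and Scop replicate 3. With the keratocyte score r was 0.609 (exact permutation p = 0.126, adjusted 0.189) and rho 0.857 (exact permutation p = 0.0107, adjusted 0.0643). Without the same libraries the keratocyte r was 0.873. Over all 8 libraries, 1.33% of tested genes outside the marker list had an endothelium r at least as high as Adamts10. For the keratocyte r the share was 16.3%. The log2 fold change of 0.10 (SE 0.13) was -0.01 without ICI replicate 1. Adamts18, whose human counterpart is mutated in disorders of the anterior eye, was at 0.705, 1.24, 0.816 and 0.773 FPKM in ICI, against 0.978, 0.899, 0.838 and 0.696 in Scop, with a log2 fold change of 0.02 (SE 0.10).

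Adamts1, Adamts4, Adamts5 and Adamts9 encode enzymes that cut versican and related proteoglycans. Adamts1 was at 1.16, 1.09, 0.743 and 0.891 FPKM in ICI, against 2.05, 1.42, 0.433 and 0.954 in Scop. The Scop libraries reached further in both directions than ICI. Its log2 fold change of -0.12 (SE 0.20) was -0.31 without Scop replicate 3, 0.05 without Scop replicate 1 and -0.34 with the keratocyte score as a covariate (unadjusted p = 0.0208, adjusted p = 0.247 by limma). Adamts4 had 24, 23, 15 and 41 fragments in ICI, against 48, 47, 39 and 38 in Scop. Only ICI replicate 4 reached the Scop range. It was too low for the test, and in the fit without a filter its log2 fold change was -0.10 (unadjusted p = 0.0121, adjusted p = 0.434 by limma). Adamts5 was at 0.271, 0.215, 0.271 and 0.271 FPKM in ICI, against 0.403, 0.228, 0.134 and 0.155 in Scop, and Adamts9 at 0.215, 0.0647, 0.0622 and 0.0384 in ICI, against 0.136, 0.105, 0.0323 and 0.0865 in Scop. Adamts17 was at 0.261, 0.362, 0.359 and 0.281 FPKM in ICI, against 0.311, 0.229, 0.278 and 0.296 in Scop.

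Adamts14, which encodes a further procollagen amino-propeptidase, was the 1 of all 44 members whose groups did not overlap, against 4.74% of the genes above 0 in some library, and 2.74% with ICI the lower group. It had 0 fragments in all 4 ICI libraries, against 25, 3, 1 and 4 in Scop. Most of the Scop fragments were in replicate 1, and the other 3 libraries together had 8. Voom on the fragments without a filter gave an unadjusted p of 0.000471 and an adjusted p of 0.181. Limma without a filter gave an unadjusted p of 0.128. Mmp27, Adamts20 and Adamts4 were other low members with an unadjusted p under 0.05 in voom, at 0.0489, 0.0243 and 0.0323, and none passed (adjusted p = 0.563, 0.484 and 0.509). Adamts4 had a log2 fold change of -0.87 (SE 0.36) there. Mmp27 had 8, 6, 0 and 4 fragments in ICI, against 1, 0, 1 and 0 in Scop. Adamts20 had 0, 1, 0 and 0 fragments in ICI, against 3, 12, 0 and 2 in Scop.

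The rest of the pathway was read from lists of regulators, relatives, substrates and inducers, and none of their members passed limma's adjusted p with all 8 libraries. Among 19 tested regulators and partners of MMPs, 12 had positive and 7 negative values (median 0.13). Genes of the plasminogen system had the lowest p of this list. Plaur, the urokinase receptor gene, was at 0.895 ± 0.164 FPKM in ICI and 1.92 ± 0.741 in Scop (log2 fold change -0.59, SE 0.16, adjusted p = 0.239 by limma). Plat, the gene of tissue plasminogen activator, was at 12.4 ± 0.535 in ICI and 15.1 ± 2.35 in Scop (-0.25, SE 0.09, adjusted p = 0.340, and -0.16 without Scop replicate 3). Sparc, a matricellular glycoprotein gene of the stroma, was at 151.0 ± 27.8 in ICI and 119.1 ± 35.7 in Scop. Scop replicate 3 held 69.5 FPKM of Sparc, and the log2 fold change of 0.38 was 0.14 without it.

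Of 8 tested genes of the ADAM family, 2 had positive values (Adam33 and Adamdec1) and 6 negative values (median -0.08). Many genes of this family, though not all, encode membrane-bound relatives that shed surface proteins. Adam8, a sheddase gene of leukocytes, was at 0.244 ± 0.0713 FPKM in ICI and 0.907 ± 0.348 in Scop (-0.60, SE 0.13, adjusted p = 0.166 by limma). The summed level of the 7 neutrophil markers in the table was between 7.88 and 16.0 FPKM in ICI and between 15.9 and 24.7 in Scop. Most of it was S100a9, at 7.46 to 12.8 FPKM in ICI and 15.0 to 22.9 in Scop. S100a8 overlapped between the groups, at 0.389 to 2.98 FPKM in ICI and 0.573 to 1.81 in Scop. Ly6g was at 0, and Csf3r, Cxcr2, Elane and Retnlg stayed under 0.2. Of these, Csf3r, Cxcr2 and Elane had the higher mean in ICI and Retnlg in Scop. The summed level of 10 macrophage and dendritic markers overlapped, at 33.8 to 40.7 FPKM in ICI and 27.7 to 42.5 in Scop. The part of these markers in the Adam8 values was not tested. Adam28, a member of the same family, was at 6.83 ± 0.420 FPKM in ICI and 7.88 ± 0.845 in Scop (-0.18, SE 0.08, adjusted p = 0.418). Adam10 and Adam17, the main sheddase genes of epithelia, were at 22.8 ± 0.868 and 22.7 ± 1.38 FPKM in ICI, against 24.3 ± 1.10 and 24.6 ± 1.87 in Scop. Of 6 tested ADAMTS-like genes, which lack the protease domain, 4 had positive and 2 negative values (median 0.16), and Adamtsl4 was at 7.34 ± 0.346 FPKM in ICI and 9.04 ± 1.25 in Scop (-0.26, SE 0.09, adjusted p = 0.297). Of 4 tested tolloid proteases and enhancers 3 had positive values (median 0.11), and Pcolce, the enhancer of procollagen C-proteinase, was at 48.7 ± 4.10 in ICI and 41.4 ± 8.87 in Scop. Scop replicate 3 held 28.4 FPKM of Pcolce, and the log2 fold change of 0.25 was 0.09 without it.

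Of 5 tested substrates 4 had positive values (median 0.24), with Col1a1 at 106.0 ± 24.7 FPKM in ICI and 76.0 ± 28.7 in Scop (log2 fold change 0.54, and 0.23 without Scop replicate 3), and Acan, the aggrecan gene, was listed at 0 in all libraries. The summed level of the substrates was 95.2 FPKM in Scop replicate 3, against 224 to 366 in ICI and at least 209 in the other Scop libraries. Of 7 tested cytokine genes that induce MMPs, 1 had a positive and 6 a negative value (median -0.24), with Il1a at 14.7 ± 3.13 FPKM in ICI and 18.7 ± 2.30 in Scop (adjusted p = 0.355 by limma). Of 17 transcription factors and kinases 7 had positive and 10 negative values (median -0.03). Cebpd, the gene of an inflammation-linked C/EBP factor, had the lowest p of all the lists. It was at 3.28, 3.33, 3.65 and 4.30 FPKM in ICI, against 5.68, 7.96, 7.27 and 8.74 in Scop. All ICI libraries lay below all Scop libraries for Cebpd, as they did for Plaur, Plat, Adam8 and Adamtsl4 of these lists. Over all tested genes, 6.98% had groups without overlap in either direction. The Cebpd log2 fold change of -0.85 (SE 0.12) had an adjusted p of 0.0788 by limma. Without Scop replicate 1 that adjusted p was 0.0449, the only one of the alternatives in which a gene of these lists passed. Over its alternatives the adjusted p of Cebpd lay between 0.0449 and 0.309. Junb, an AP-1 subunit gene, was at 124.9 ± 36.2 FPKM in ICI and 86.7 ± 5.80 in Scop (0.48, SE 0.18, adjusted p = 0.340), and Ets2 at 42.0 ± 3.77 in ICI and 53.2 ± 10.02 in Scop (-0.32, SE 0.12, adjusted p = 0.333, and -0.21 without Scop replicate 3).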

How the data were processed

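RNA extraction used a Qiagen kit and library construction a Vazyme kit, per the labels' protocols. The tools were HTSeq, fastp and HISAT2 and the build mm10, per the submitters' processing notes, with versions, roles, annotation and strandedness not given in the sources used here. The authors deposited 1 table of FPKM values, 1 column per sample, with no scaling between samples stated. Columns were matched to samples by title.

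Whole fragments were read back from the spacing of the FPKM values (relative tolerance 5e-13, whole within 0.01) for 99.7% of the genes above 0. A common factor in all libraries makes the recovered number of a gene too low, and genes above 0 in 1 library have no recovered number. The test was limma 3.58.1 in R 4.3.3 with a trended variance on log2(FPKM + 1), two-sided, over genes averaging at least 0.5 FPKM, with Benjamini-Hochberg adjustment at 0.05; it was tested on simulated data. Fold changes on this scale understate those of low genes. Positions are from GENCODE on GRCm38, and promoters from RefSeq (GRCm38.p6), which held 31 of the 44 members by symbol.

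Named were all members with an unadjusted p under 0.05 or no overlap between the groups, the 5 most abundant MMP and ADAMTS genes, all TIMPs, a fixed set of 14 genes, up to 3 genes of smallest p per pathway list, and tissue markers. Mmp19, Mmp23, Mmp27, Adamts20, Adam17, Acan and the endothelial relation were added after their values were seen. The members and lists were chosen with earlier results of these data known. Alternatives were other pseudocounts, filters, scalings, variance models, a replicate block, marker scores as covariates, voom, and leaving out each library.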

Additional observations from a re-analysis of the deposited data

Results flagged for a closer look

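In 12 of 74 groups of 4 libraries, 1 library lay farther from the other 3 than Dixon's 95% critical value allows for the group's range. Chance gives about 1 in 20 for normally distributed values. That share does not apply to genes with few or tied fragments, so 12 of 74 cannot be set against it. Among the abundant members, Timp3 was flagged in ICI replicate 1, at 81.1 FPKM against 31.0 to 32.6 in the other ICI libraries. Timp2 was flagged in ICI replicate 1, at 71.7 against 62.1 to 63.7. Timp2 in Scop replicate 3 was at 35.8 FPKM, against 64.3 to 69.9 in the other Scop libraries. The remaining 9 were in genes below 0.5 FPKM. In ICI, Mmp7 was at 0.182 FPKM in replicate 3 (others at most 0.0238), Mmp24 at 0 in replicate 1 (others at least 0.0117) and Adamts5 at 0.215 in replicate 2 (others 0.271). Adamts8 was at 0.0328 FPKM in ICI replicate 2 (others at most 0.00575) and Adamts9 at 0.215 in ICI replicate 1 (others at most 0.0647). In Scop, Mmp10 was at 0.144 FPKM in replicate 1 (others at most 0.0320), Adamts8 at 0.0325 in replicate 1 (others at most 0.00551), Adamts13 at 0.0398 in replicate 2 (others at most 0.00489) and Adamts14 at 0.115 in replicate 1 (others at most 0.0204). Most of these low genes rest on a few fragments per library, but Adamts5 had 70 to 88 in ICI and Adamts9 had 76 in ICI replicate 1.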

How the results depend on the processing

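No member passed an adjusted p of 0.05 in any of the 21 alternatives, and the lowest adjusted p was 0.237 (Adamts1, keratocyte score as covariate without Scop replicate 3). Of 307 alternative values of the members, 275 had the direction reported and 32, in 10 members, the opposite. With the keratocyte score as covariate, Mmp2 was -0.094, Mmp14 0.018, Mmp23 -0.015, Timp2 -0.062, Timp3 -0.0027 and Adamts2 -0.044. With that score and without Scop replicate 3, Mmp2 was -0.11, Mmp14 0.018, Mmp23 -0.015, Timp2 -0.059, Timp3 -0.044, Adamts2 -0.044 and Adamts10 -0.0095. With the endothelium score, Mmp14 was 0.0017, Mmp23 -0.024, Timp3 -0.11 and Adamts10 -0.011. With quantile normalisation, Mmp23 was -0.0060 and Adamts18 -0.017. The cause was not tested. The endothelium score, voom without a filter and the keratocyte score without Scop replicate 3 were chosen after seeing the data.

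Leaving out 1 library at a time turned the direction of Mmp2 (-0.054 to 0.34), Mmp3 (-0.45 to 0.041), Mmp14 (-0.10 to 0.013), Mmp23 (-0.037 to 0.083), Timp2 (-0.044 to 0.27), Timp3 (-0.086 to 0.45), Adamts1 (-0.31 to 0.054), Adamts2 (-0.025 to 0.28), Adamts10 (-0.013 to 0.18) and Adamts18 (-0.068 to 0.064). Scop replicate 3 was the library for Mmp2, Mmp14, Timp2 and Adamts2. ICI replicate 1 was the library for Mmp3, Timp3 and Adamts10, and Scop replicate 1 for Adamts1. Adamts18 turned without ICI replicate 2 or Scop replicate 4, and Mmp23 without ICI replicate 1, Scop replicate 1 or Scop replicate 3.

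Over all genes, 0 to 4 were called higher and 0 to 2 lower when 1 library was left out; the 4 and the 2 came without Scop replicate 4. With the keratocyte score, with or without Scop replicate 3, 1 gene was called lower. Members at an unadjusted p under 0.05 numbered 0 to 2 without 1 library, 3 without a filter, 0 with a filter of 5 FPKM, 2 with the keratocyte score, 2 with it and without Scop replicate 3, and 5 by voom without a filter. The median over the members was -0.049 with the 5 FPKM filter and -0.022 with the keratocyte score without Scop replicate 3, and the MMP median -0.093 with the 5 FPKM filter. Members with no overlap numbered 1 without a filter and 0 to 1 without 1 library.

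The labels do not say whether the replicate numbers pair the samples. The correlations of same-numbered deviations were 0.287, -0.00927, 0.138 and 0.0769, and 0.287 was the highest of all pairs between the groups. With 4 libraries per group these values cannot decide whether the samples were paired. With the replicate block, 1512 genes had an unadjusted p under 0.05, against 1455 without it, with 1 member among them and 0 called after adjustment. The edgeR alternative was not run, since it needs deposited counts. Depth limits the lowest genes, where single fragments decide the values. Not all genes below 0.5 FPKM were so limited, since Adamts17 had 91 to 145 fragments per library.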
